A study of Rattus norvegicus with 30 samples.

Results

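The 5 rats examined here were adult female Long Evans rats whose cervical spinal cord was taken 6 weeks after a thoracic spinal cord injury (SCI 6 weeks). They were chosen by their titles, and they are 5 of the 30 libraries of the series. Their reference was the mean of 2 sham-operated groups of 5 rats each, taken 1 week (sham 1 week) and 12 weeks (sham 12 weeks) after the operation, so that 15 libraries entered the comparison. All rats were of the strain Long Evans Crl:LE, and adults older than 10 weeks, and the labels name no mutation, transgene or drug that sets the groups apart. The sham rats had sham surgery per the labels, apart from sham 1 week replicate 1, whose labels conflict as described below. No sham rat of 6 weeks was analysed here. Time since surgery and injury therefore differ together between the groups, and the reference brackets 6 weeks rather than matching it. Injured rats of 1, 3 and 12 weeks, 5 per group, entered the fit and 1 further comparison.

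The tissue was a slice at the third cervical vertebra, from which gray matter of both sides was cut out, namely the intermediate laminae IV to VII. It lies above the lesion and was not itself damaged. Corticospinal axons run from the motor cortex down the cord and end largely on interneurons of these laminae. When a thoracic lesion severs the axons bound for the lumbar cord, their stumps remain connected to the cortex above the lesion and can send new side branches into cervical gray matter. Sprouting axons, local interneurons, astrocytes, microglia, oligodendrocytes and vessels all contribute RNA to such a sample. In bulk tissue, fewer cells of a type and less RNA per cell cannot be told apart.

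The deposited tables list genes by identifier and do not pair them with names, and none of the reference tables used here holds an identifier of that kind. What the 4 genes named below encode is therefore not stated, cell type markers and pathway lists were not analysed here, and the labelled tissue was not checked against its markers. For the same reason no sequence is shown.

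SCI 6 weeks had the lowest mean total of the 6 groups and the 2 shallowest libraries of the series. Its totals were 6.46, 7.04, 12.0, 12.1 and 10.7 M counts, with a mean of 9.67 M ± 2.73 (SD, n = 5), against 21.7 M ± 9.89 in sham 1 week and 14.5 M ± 2.64 in sham 12 weeks. Sham 1 week replicate 1 carries conflicting labels. Its title makes it a control, whereas its surgery and source fields give an injury, and it was kept as sham.

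**Figure D1:**
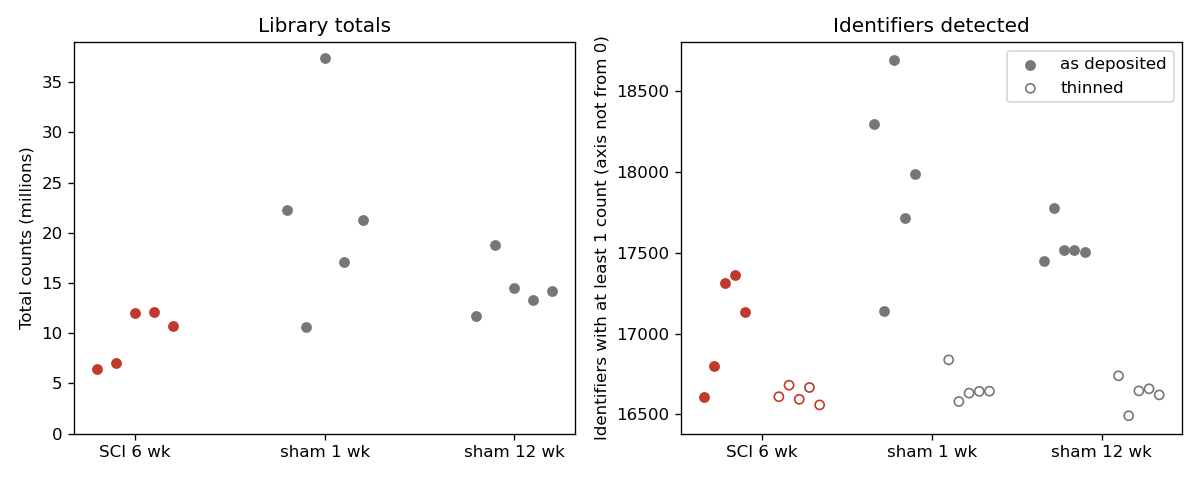
Library totals in M counts (left) and identifiers with at least 1 count (right) for the 5 rats of each compared group, filled points as deposited and open points after thinning to the total of the shallowest library. As deposited the SCI 6 weeks libraries lie low on both panels. After thinning, shown for the first random draw, they lie between 16559 and 16681 identifiers, inside the sham range of 16492 to 16838.

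Fewer genes had a count in SCI 6 weeks libraries than in sham libraries. An SCI 6 weeks library had at least 1 count for 17045 ± 329 genes (SD, n = 5) and a sham library for 17760.3 ± 456 (n = 10), a difference of -715.5 (exact two-sided permutation test over 3003 splits, p = 0.00833, Benjamini-Hochberg adjusted p = 0.0416 over 5 library measures). With sham 1 week alone as reference that difference did not pass (exact permutation test, adjusted p = 0.0661). Every library was then thinned at random to 6.46 M counts. In the first of 10 draws the numbers were 16622 ± 51.0 and 16649 ± 91.0, a difference of -27.2 (exact permutation p = 0.559). The other draws were not measured in this way, and the part of depth in the difference was not tested. The 10 most abundant genes of a library held 12.0% ± 0.501 of its counts in SCI 6 weeks and 11.3% ± 0.914 in the shams (exact permutation p = 0.137, adjusted p = 0.171). The difference in total counts did not pass after adjustment (exact permutation p = 0.0263, adjusted p = 0.0658). Neither did that in the TMM scaling factor (exact permutation p = 0.0556, adjusted p = 0.0927).

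No gene differed between SCI 6 weeks and the mean of both sham groups at an adjusted p under 0.05 (edgeR quasi-likelihood test, 0% of 14801 genes tested). At an unadjusted p under 0.05 there were 1216 genes, 8.22% of those tested, with 678 higher (4.58%) and 538 lower (3.63%) in the injured rats. This excess of higher genes did not hold against sham 1 week alone, as given with that comparison. DESeq2 called 1 gene and limma-voom called 0 in the same comparison. The 1216 genes are described here without being called changed. Their differences were small, with an absolute log2 fold change of 0.22 at the median and from 0.09 to 2.27 in range.

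Larger differences were met almost wholly among scarce genes. Of the 1216 genes, 152 exceeded 1.5-fold, and 133 of these belonged to the lowest of 5 classes of equal size by level, at 0.295 to 3.65 CPM (counts brought to a shared library size after TMM scaling). Of the 58 that exceeded 2-fold, 27 were higher and 31 lower, and 56 lay in that lowest class. In 18 of the 58, at least 1 of the 15 libraries had no count at all.

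The share of genes at an unadjusted p under 0.05 was larger at higher levels. It was 5.78% in the lowest class and 6.89%, 8.99%, 9.22% and 10.2% in the next 4. In the highest class, above 72.6 CPM, 204 such genes were higher and 98 lower after injury, whereas the middle class held 123 higher and 143 lower. The median log2 fold change of all genes in a class stayed between -0.01 and 0.01. TMM scaling sets the typical fold change near 0, so these medians cannot show whether a class shifted as a whole. The excess of higher over lower genes among abundant genes was not tested, because genes are not independent of each other. It was also not measured by class against each sham group alone or after thinning.

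**Figure D2:**
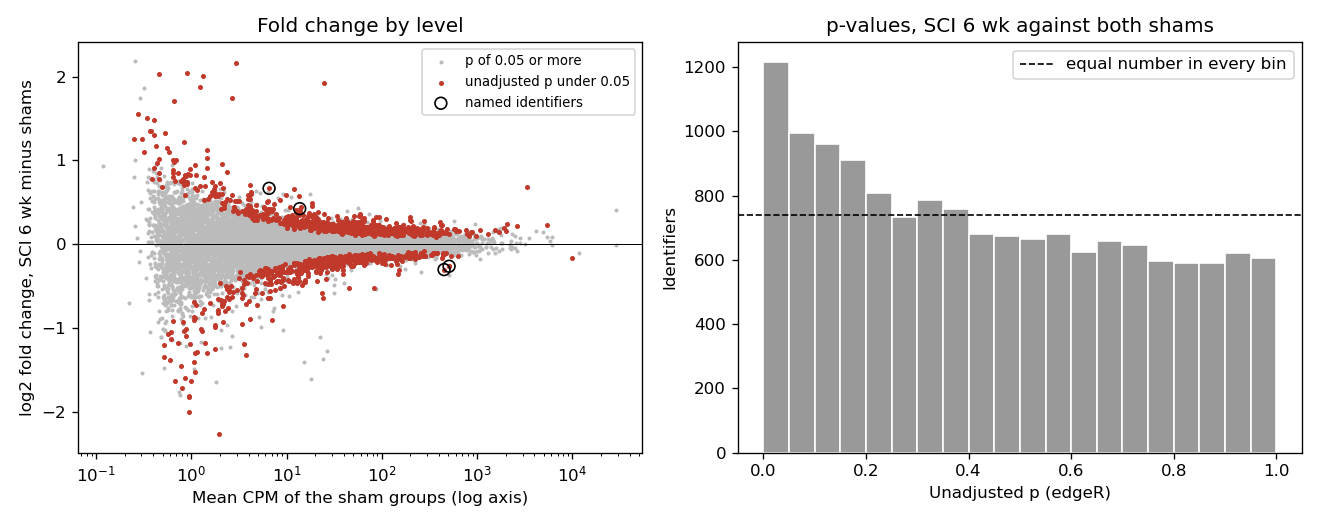
Left, log2 fold change of SCI 6 weeks minus the mean of both shams against the mean sham level in CPM on a log axis, with genes at an unadjusted p under 0.05 in red and the 4 named genes circled. Right, the number of genes in 20 equal bins of p, with a dashed line at an equal number per bin. The lowest p bin holds the 1216 genes, and 56 of the 58 fold changes over 2-fold among them belong to the lowest class by level.

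In 29 genes, 0.196% of those tested, all 5 injured rats lay outside the range of all 10 sham rats. The injured rats were above every sham rat in 10 genes (0.0676%) and below in 19 (0.128%). The median absolute log2 fold change of the 29 was 0.26, 28 of them had an unadjusted p under 0.05, and their smallest adjusted p was 0.523. None of the 4 genes named below was among them.

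How large a change these data leave possible can be read from the intervals. For 13482 genes, 91.1% of those tested, the whole 95% interval lay within 2-fold up or down, and for 77.9% it lay within 1.5-fold. In the lowest class by level these shares were 58.5% and 11.7%. In the highest class they were 99.9% and 99.3%. For well expressed genes of this region, differences of 1.5-fold or more at 6 weeks thus lay outside the interval almost throughout. For scarce genes a 1.5-fold difference mostly lay inside it.

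The named genes are the 2 with the smallest p in each direction, although none passed the threshold. ENSRNOG00000027849 had the smallest p of all genes. In SCI 6 weeks its levels were 11.3, 10.2, 9.77, 9.08 and 11.4 CPM in replicates 1 to 5. In sham 1 week they were 7.09, 9.92, 6.79, 5.86 and 5.67 CPM, and in sham 12 weeks 6.85, 5.24, 6.15, 5.32 and 6.73 CPM. Every injured rat was above every sham rat except sham 1 week replicate 2, whose 9.92 CPM exceeded 2 of the 5 injured rats.

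The log2 fold change of ENSRNOG00000027849 was 0.67 with a standard error of 0.13, that is 1.59-fold with a 95% interval of 1.33 to 1.90 (edgeR, adjusted p = 0.11). The interval is not adjusted for the choice of this gene by its p among 14801, so it is a description. Without sham 1 week replicate 2 it passed (edgeR, adjusted p = 0.00772), and DESeq2 called it with all libraries (adjusted p = 0.00616). Over 48 alternatives, each with its own adjusted p, that p ran from 0.00616 to 0.804, and the log2 fold change from 0.56 to 0.77. The level rests on few reads, 71 to 119 counts in an SCI 6 weeks library.

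Among injured rats the mean level of ENSRNOG00000027849 was 10.3 ± 0.996 CPM (SD, n = 5) at 6 weeks. It was 7.37 ± 0.699 at 1 week, 7.06 ± 1.33 at 3 weeks and 6.73 ± 1.08 at 12 weeks. Each SCI 6 weeks rat lay above the highest of the other injured rats, at 8.75 CPM. The gene was chosen by its p with these same SCI 6 weeks rats, so this is a description. The difference from the mean of the 3 other injured groups was 0.55 on the log2 scale with a standard error of 0.12, and it did not pass (edgeR, adjusted p = 0.441).

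**Figure D3:**
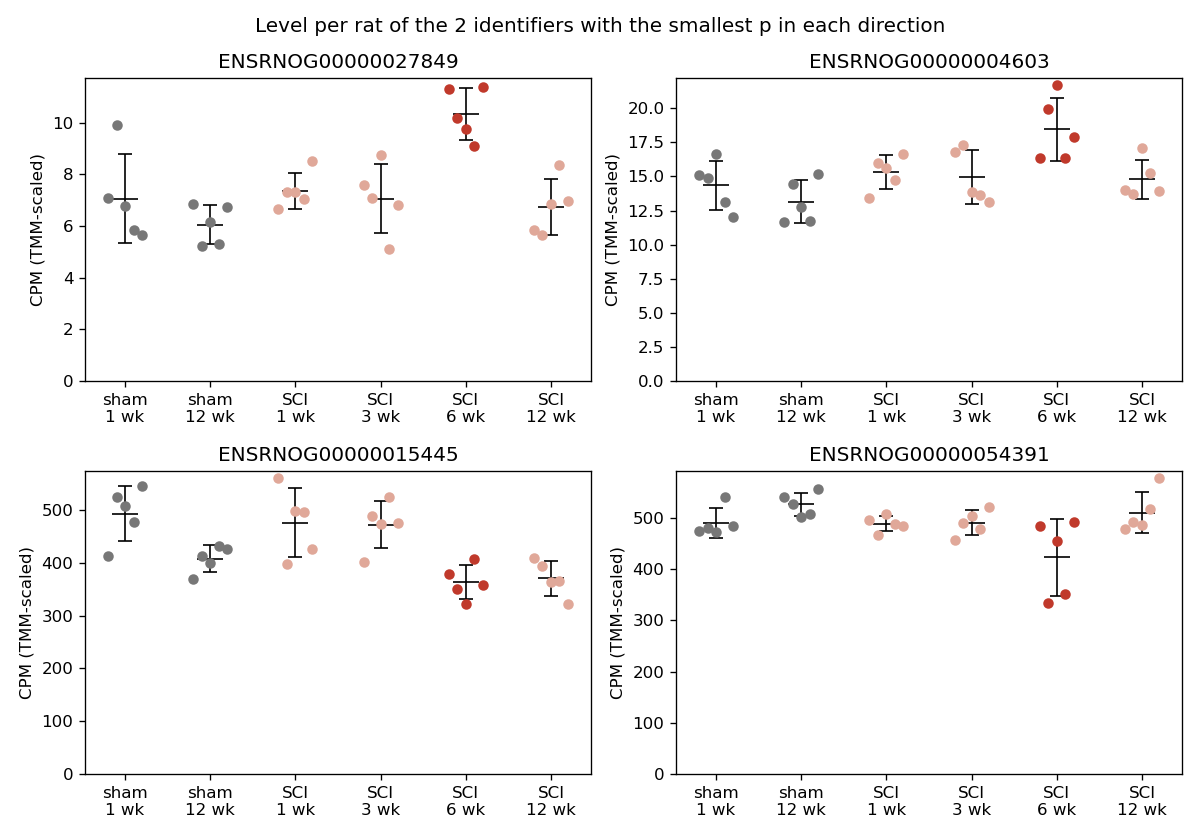
CPM of the 4 named genes in each of the 30 rats by group, with mean and SD in black and SCI 6 weeks in red. The genes were chosen by their p in the comparison of SCI 6 weeks with both shams, so the gap to the shams is a description. The gap to the other injured groups shares the SCI 6 weeks rats and is a description too. The red points of ENSRNOG00000027849 run from 9.08 to 11.4 CPM, above all other injured rats.

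ENSRNOG00000004603 had the second smallest p among genes that were higher. Its levels were 16.4, 19.9, 21.7, 16.3 and 17.9 CPM in SCI 6 weeks, 15.1, 14.9, 16.6, 13.1 and 12.0 CPM in sham 1 week, and 11.7, 14.4, 12.8, 11.7 and 15.2 CPM in sham 12 weeks. In SCI 6 weeks 3 rats were above all sham rats and the other 2 were below sham 1 week replicate 3. The log2 fold change was 0.42 with a standard error of 0.095, a 1.34-fold difference (edgeR, adjusted p = 0.523). Single rats of the other injured groups reached into this range, and their group means were 14.8 to 15.3 CPM.

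ENSRNOG00000015445 had the smallest p among genes that were lower. Its levels were 378, 350.5, 322, 408 and 359 CPM in SCI 6 weeks. In sham 1 week they were 413, 524, 508, 477 and 545 CPM, and in sham 12 weeks 369, 412, 399, 433 and 426 CPM. All injured rats were below all sham 1 week rats, whereas 2 of them lay within the range of sham 12 weeks. The log2 fold change was -0.30 and its standard error 0.074 (edgeR, adjusted p = 0.523).

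For this gene the choice of sham group mattered. Against sham 1 week alone the log2 fold change of ENSRNOG00000015445 was -0.44 (95% interval -0.61 to -0.27, edgeR, adjusted p = 0.118), and against sham 12 weeks alone it was -0.17 (95% interval -0.34 to 0.00457, adjusted p = 0.536). Its mean in SCI 12 weeks, 371 ± 33.5 CPM (SD, n = 5), was close to the 363 ± 32.1 of SCI 6 weeks, and those of SCI 1 week and SCI 3 weeks were 476 ± 65.0 and 472 ± 44.7.

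ENSRNOG00000054391 was the other gene with a lower level. Its levels in SCI 6 weeks were 484, 334, 456, 351 and 492 CPM, with 2 rats far below the other 3. The sham 1 week rats had 474, 479.6, 472, 542 and 484 CPM and the sham 12 weeks rats 541, 528, 503, 508 and 556 CPM. In SCI 6 weeks 3 rats were below all sham rats, and replicates 1 and 5 lay within the sham 1 week range. The log2 fold change was -0.26 and its standard error 0.067 (edgeR, adjusted p = 0.523), and it was -0.19 without SCI 6 weeks replicate 2.

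The counts of ENSRNOG00000054391 were nearly those of a further identifier, with a ratio between 0.998 and 1.005 in the 30 libraries. That identifier ranked just after it, with a log2 fold change of -0.26. How the authors' counting divided reads between genes that share sequence is not given in the sources used here, so this gene is uncertain, and both identifiers stand for a single observation. Among 9786 genes with at least 50 counts in every library, 7 had such a partner within 1%.

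The comparison was repeated against each sham group alone, since the shams differ in time since surgery. Both share the SCI 6 weeks rats with the main comparison and with each other, so they are not separate evidence. Against sham 1 week 0 genes passed (edgeR, smallest adjusted p = 0.118), 961 genes had an unadjusted p under 0.05 (6.49%), and the ranges of the 5 injured and 5 sham rats did not overlap in 181 (1.22%). Of the 961 genes 455 were higher (3.07%) and 506 lower (3.42%) after injury, a split on the other side of that against both shams. DESeq2 called 1 gene and limma-voom 0. The gene DESeq2 called was ENSRNOG00000015445, the only gene that edgeR called against this group without SCI 1 week replicate 1, without SCI 1 week replicate 2 or without sham 1 week replicate 1. With only the 15 compared libraries in the fit edgeR also called this gene and no other.

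Against sham 12 weeks 0 genes passed as well, by a small margin (edgeR, smallest adjusted p = 0.0561). There 1395 genes had an unadjusted p under 0.05 (9.43%), 779 higher (5.26%) and 616 lower (4.16%), and the ranges did not overlap in 430 genes (2.91%). At an adjusted p under 0.1 there were 5 genes, all higher in the injured rats, and ENSRNOG00000027849 was among them with a log2 fold change of 0.77 (95% interval 0.46 to 1.08, adjusted p = 0.0561). DESeq2 called 25 genes, 22 of them higher, and limma-voom called 0. Of the 4 named genes the DESeq2 calls held ENSRNOG00000054391, which was lower, and not ENSRNOG00000027849. With only the 15 compared libraries in the fit edgeR called 4 genes against sham 12 weeks, none of them named here, and after thinning it called 0 to 2 over 10 draws.

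The count against sham 12 weeks rested on single libraries, also on libraries of neither compared group. It was 6 without SCI 6 weeks replicate 1, 7 without SCI 6 weeks replicate 4 and 1 without sham 12 weeks replicate 2. It was 2 without sham 1 week replicate 2, 4 and 8 without SCI 3 weeks replicates 1 and 4, and 4, 4 and 5 without SCI 12 weeks replicates 2, 3 and 4. In the other 21 fits that left out a library it was 0.

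**Figure D4:**
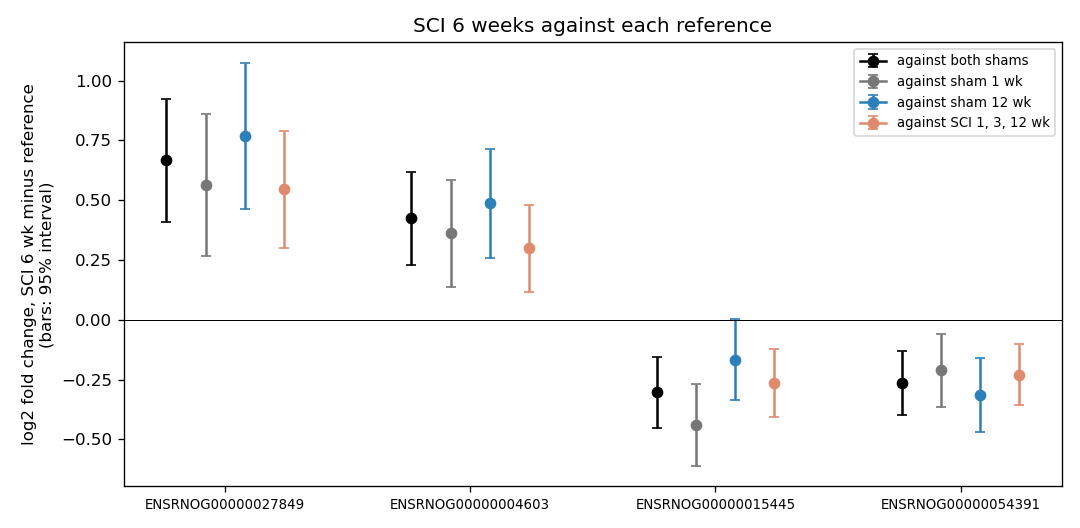
Log2 fold change of SCI 6 weeks against each reference for the 4 named genes, with 95% intervals from the edgeR fit. The references are both shams, each sham group alone and the mean of the other injured groups, and all share the SCI 6 weeks rats. For ENSRNOG00000015445 the interval against sham 12 weeks reaches 0, and the other intervals lie on the side of the main estimate. The genes were chosen by their p against both shams, so the side of the intervals is a description.

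Whether SCI 6 weeks stood apart from the other injured groups was tested against the mean of SCI 1, 3 and 12 weeks. No gene passed (edgeR, smallest adjusted p = 0.395), 778 genes had an unadjusted p under 0.05 (5.26%), and DESeq2 and limma-voom each called 0. In 2 genes, 0.0135% of those tested, all 5 rats of 6 weeks lay outside the range of the other 15 injured rats, and ENSRNOG00000027849 was among them, above that range. Of the 4 named genes it had the smallest p in this comparison. It was named for its high level in these same SCI 6 weeks rats, so its place here is not separate support. For 92.4% of genes the whole interval lay within 2-fold.

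Because depth differed between the groups, all libraries were thinned to 6.46 M counts, in 10 random draws, and the test against both shams was repeated. No gene passed in any draw (edgeR, smallest adjusted p from 0.0997 to 0.784). The number at an unadjusted p under 0.05 was 817 to 862, or 5.96% to 6.29% of 13673 to 13699 genes tested. Higher genes outnumbered lower ones in 9 draws, and in the first draw 414 were higher and 448 lower. Of the original 1216 genes 1154 to 1161 could still be tested, and 539 to 567 were again at an unadjusted p under 0.05 in the same direction. Thinned libraries are drawn from the same reads, so a kept direction is not separate support.

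Genes whose ranges did not overlap numbered 10 to 18 per draw after thinning, and 2 to 5 of these were among the original 29. Most of that list therefore changed with a random loss of reads. The log2 fold change of ENSRNOG00000027849 ran from 0.49 to 0.89 over the draws (edgeR, adjusted p from 0.0997 to 0.810), and that of ENSRNOG00000004603 from 0.30 to 0.51. The abundant genes moved less, ENSRNOG00000015445 between -0.32 and -0.28 and ENSRNOG00000054391 between -0.29 and -0.25.

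The rats of SCI 6 weeks did not weigh equally in the count of 1216. Without replicate 3 there were 765 genes at an unadjusted p under 0.05, without replicate 4 there were 1534, and without replicates 1, 2 and 5 there were 945, 1149 and 1112. Between 14928 and 14937 genes were tested in these fits. The 2 shallowest of these libraries, replicates 1 and 2, were also left out together. That gave 839 of 15065 genes tested and no gene past the adjusted threshold (edgeR, smallest adjusted p = 0.804). Replicates 3 and 4 had 12.0 and 12.1 M counts. The part of depth in these moves was not tested.

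**Figure D5:**
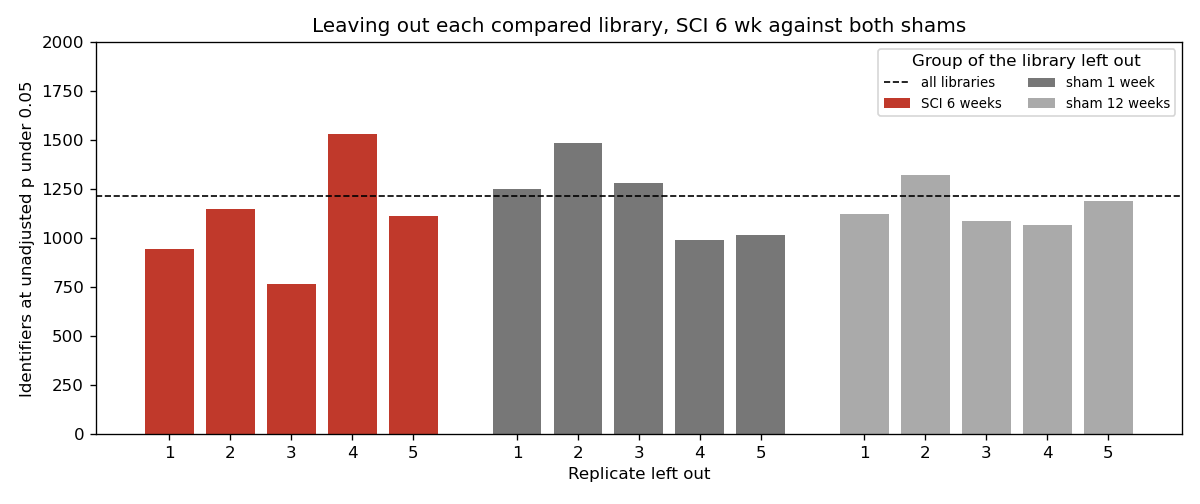
Number of genes at an unadjusted p under 0.05 in SCI 6 weeks against both shams when each of the 15 compared libraries is left out, with a dashed line at 1216 for all libraries. The bars run from 765 without SCI 6 weeks replicate 3 to 1534 without SCI 6 weeks replicate 4.

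The rats of SCI 6 weeks were about as alike as those of the sham groups. Over 8880 genes outside the 2 lowest classes by level, the median SD of log2 CPM among the 5 rats was 0.124 in SCI 6 weeks, 0.121 in sham 1 week and 0.0997 in sham 12 weeks. In the first thinned draw it was 0.135, 0.171 and 0.130. Sham 12 weeks had the smallest spread of the 6 groups in both forms, and these values were not tested against each other.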

How the data were processed

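Each library held total RNA of 1 rat, freed of ribosomal RNA and prepared so that strand is kept, per the labels' protocols. The authors deposited raw counts per gene identifier. The submitters' processing notes name STAR 2.5.3a, featureCounts, Subread, Trimmomatic and bcl2fastq 2.19.05 and the build Rnor_6.0, without roles. The annotation release and how multi-mapping reads were counted: not given in the sources used here. Each table lists 32545 identifiers.

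Groups and replicate numbers come from the titles. Counts were tested with edgeR 4.0.16 in R 4.3.3 (TMM, filterByExpr, robust quasi-likelihood fit of all 6 groups, 14801 genes, Benjamini-Hochberg adjustment). The 95% intervals use standard errors obtained from fold change and F. The common dispersion was 0.0144. The fit was tested on simulated data. Within the 3 compared groups 30 pairs of libraries had a chi-square per degree of freedom of 4.39 to 28.2, so none agreed within sampling noise. The 5 rats per group had been chosen on RNA quality and quantity, per the labels.

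Alternatives were thinning, DESeq2 1.42.0, limma-voom (limma 3.58.1), sva 3.50.0, other filters, scalings, covariates and references, and each library left out. None of 32545 identifiers matched the reference table, so the 37 planned gene lists were not run and the named genes are the 2 per direction with the smallest p. Comparisons, lists and rules were chosen with earlier results of these data known.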

Additional observations from a re-analysis of the deposited data

Results flagged for a closer look

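In 27 sets of 5 rats (the 4 named genes and 5 library measures in SCI 6 weeks and both sham groups) 3 had a library far from the other 4, where chance at 1 in 20 gives 1.35. ENSRNOG00000054391 stood at 542 CPM in sham 1 week replicate 4, with the other 4 rats between 472 and 484 CPM. Sham 12 weeks replicate 2 had at least 1 count for 17776 genes, with its group otherwise between 17448 and 17520. It is the deepest library of its group, at 18.8 M counts. In the first thinned draw sham 1 week replicate 1, the library with conflicting labels, had 16838 genes with a count. Its group otherwise lay between 16580 and 16644. Its part in the results was measured by leaving it out. The count against both shams stayed at 0, and 1253 of 14909 genes had an unadjusted p under 0.05. Against sham 1 week alone the count went from 0 to 1 without it, the gene being ENSRNOG00000015445 (edgeR, adjusted p = 0.0119). For that gene this library had the lowest level of its group, 413 CPM.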

How the results depend on the processing

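Against both shams the count of 0 became 1 with DESeq2 and ran from 0 to 1 over 30 fits that each left out a library, and it was 0 under the other alternatives run. With a library left out, the 1216 of 14801 genes at an unadjusted p under 0.05 became 765 of 14937 to 1534 of 14936. Under the others the count ran from 818 of 14801 with 2 surrogate variables to 1636 of 22729 with no filter on low counts. The setting with the most such genes also tested more genes, but a higher count did not always go with more genes tested. The count was 1499 of 14324 with only the 15 compared libraries in the fit, above 1216 although from fewer genes. With log2 library size as a covariate the count was 966 of 14801. Against sham 1 week the count of 0 became 1 after thinning (0 to 2 over 10 draws), 1 with DESeq2, 1 with only the 15 compared libraries in the fit and 1 with sham 1 week replicate 1 counted as SCI 1 week, and it ran from 0 to 1 with a library left out. Against sham 12 weeks it was 25 with DESeq2, 5 at an adjusted p of 0.1, 4 with only the 15 compared libraries in the fit and 0 to 2 over the thinned draws, and it ran from 0 to 8 with a library left out. Against the other injured groups it was 1 in the first thinned draw (0 to 1 over draws) and 0 with each library left out. The cause of these moves was not tested. With the replicate number as a block the count was 8 against sham 12 weeks and 0 in the other comparisons, and 1214 genes had an unadjusted p under 0.05 against both shams. Rats with the same number were not shown to be paired, since their deviations correlated with r from -0.13 to 0.11 and 1 of 15 pairs exceeded 0.1. Only 1 of 10 comparisons of an SCI 6 weeks rat with a sham group gave the best match to its own number. The difference in genes with a count was -922.6 against sham 1 week alone and no longer passed (exact permutation test, adjusted p = 0.0661). Against sham 12 weeks alone it was -508.4 and passed (exact permutation test, adjusted p = 0.0397). The 4 named genes kept their direction in all 48 alternatives each. Part of these alternatives could hardly change it. Another adjusted threshold leaves the fold change as it is, and leaving out a library of neither compared group barely moves it. The named genes were chosen by their p in this comparison and the alternatives reuse its libraries, so a kept direction is not separate support. Gene lists were not run. Leaving out the 2 shallow SCI 6 weeks libraries was chosen after seeing the data. The intervals were widest for scarce genes.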
